A study of Mus musculus with 8 samples.

Results

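The respiratory chain genes described here are the 96 rows of a mouse expression table whose symbols name subunits of the 5 complexes of oxidative phosphorylation. They were chosen by symbol pattern alone from 33504 genes, and pseudogenes were left out. Of the 96, 83 lie in the nucleus and 13 on the mitochondrial genome. By complex, 42 belong to complex I, 4 to complex II, 9 to complex III, 21 to complex IV and 18 to complex V (ATP synthase), and 2 more (Atp5s and Atp5sl) match by symbol without being subunits. Ndufa4 was counted in complex IV, where its protein resides. Poly(A)-selected RNA of sorted cells on a C57BL/6J background was sequenced in 8 paired-end libraries. FL-HSC are hematopoietic stem cells (HSCs) of the fetal liver at embryonic day 14.5 (2 libraries). The ex-HSC group carries the stage in vitro (3 libraries). The protocols describe a 4-day culture, where cells sorted from embryos were mixed into reaggregates with OP9 mouse stromal cells and given SCF, IL-3 and Flt3L, and they also mention cultures on Akt-EC cells. Which culture the ex-HSC libraries came from is not given in the sources used here. The pre-HSC group comes from embryonic day 11.5 (3 libraries). Matings were of wild-type females with wild-type or Ly6a-GFP transgenic males, a reporter driven by Ly6a sequences. Which libraries carried the reporter, which of 2 DNase treatments each had, and whether each replicate had its own litter or culture are not given in the sources used here.

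The respiratory chain passes electrons from NADH and succinate to oxygen and pumps protons, and ATP synthase uses the proton gradient to make ATP. Complexes I, III, IV and V hold subunits of both genomes, whereas complex II is wholly nuclear. Adult hematopoietic stem cells are known for a strong reliance on glycolysis, and differentiating progeny for greater use of mitochondrial respiration. Several complex IV subunits exist as widely expressed and tissue-restricted isoforms made from separate genes.

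Values are FPKM (fragments counted on a transcript, divided by its length in kilobases and scaled to the fragments of the library), so levels may be compared between genes. That comparison is less sure for short genes and for genes that overlap. A gene was tested where at least 2 of the 8 libraries had at least 1 FPKM, which kept 13720 genes. A change was called where the Benjamini-Hochberg adjusted p of limma, fitted over all tested genes on log2(FPKM + 1), was under 0.05. Fold changes on this scale understate changes of low genes. Each call was recomputed leaving out each library in turn and under other fits, named low-pseudocount (0.1 added in place of 1), middle-pseudocount (0.5 added), unfiltered, 5-FPKM (a stricter filter), median-of-ratios and quantile (rescaled), equal-sum (libraries scaled to 1 total, as TPM), untrended, blocked (replicate number as a term), 2-group (only the groups compared) and reduced median-of-ratios (without ex-HSC replicate 2). A call is given as kept where it passed in all of them that tested the gene. Of the respiratory chain genes, 92 were tested. Cox7b2, Cox8b and Cox8c were listed at 0 in all 8 libraries, and Atp5l2 stayed at or below 0.648 FPKM. Cox4i1, the widely expressed partner of Cox4i2, was not analysed here.

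Markers of blood stem and progenitor cells (Ptprc, Kit, Runx1, Gata2, Myb, Tal1, Itga2b and Cd34) all averaged at least 1 FPKM in each group, and their sum was 568 to 591 in FL-HSC and 358 to 667 in ex-HSC, against 375 to 442 in pre-HSC libraries. The sum joins opposed members. Cd34 averaged 120 FPKM in FL-HSC against 279 in pre-HSC, whereas all others of the list averaged higher in FL-HSC. Cd34 and Tal1 averaged lower in ex-HSC than in pre-HSC, and the others higher. Endothelial, mast cell, granulocyte, erythroid and stromal sums differed between pre-HSC and both other groups without overlap. The macrophage, hepatocyte and cell cycle sums overlapped in part. The summed FPKM of 8 endothelial markers was 158 to 165 in FL-HSC and 38.3 to 83.3 in ex-HSC, against 2090 to 2310 in pre-HSC libraries, with all 8 averaging at least 1 FPKM in every group. The sum of 8 mast cell markers was 12.9 in both FL-HSC libraries (4 of 8 averaging at least 1 FPKM, Tpsab1 and Fcer1a at 0) and 2180 to 4690 in ex-HSC (8 of 8), against 1.47 to 9.98 in pre-HSC libraries (2 of 8, with Mcpt4, Tpsb2, Tpsab1 and Fcer1a at 0). Granulocyte markers summed to 504 to 609 in FL-HSC (8 of 8) and 659 to 955 in ex-HSC (8 of 8), against 30.2 to 45.4 in pre-HSC libraries (4 of 8, Ctsg at 0). Erythroid markers summed to 437 to 565 in FL-HSC (7 of 7) and 206 to 291 in ex-HSC (7 of 7), against 81.4 to 116 in pre-HSC libraries (4 of 7). Car2 alone averaged 262 FPKM in FL-HSC and 172 in ex-HSC, against 33.3 in pre-HSC. Hba-a1 and Alas2 averaged lower in FL-HSC than in pre-HSC, unlike the other erythroid markers. Epor averaged 3.60 FPKM in ex-HSC and 3.63 in pre-HSC. Stromal markers summed to 4.07 to 5.59 in FL-HSC (2 of 8, Dcn and Lum at 0) and 12.7 to 26.5 in ex-HSC (6 of 8), against 287 to 546 in pre-HSC libraries (8 of 8). Macrophage markers summed to 108 to 373 in FL-HSC and 184 to 231 in ex-HSC, against 220 to 1180 in pre-HSC libraries (7 of 7 in each). They also differed within groups. Each was higher in FL-HSC replicate 1 than in replicate 2, such as C1qb (101 and 10.9 FPKM) and Csf1r (33.2 and 4.79 FPKM). In pre-HSC replicates 1, 2 and 3, C1qb had 171, 58.2 and 389 FPKM. Hepatocyte markers summed to 16.1 to 58.4 in FL-HSC (5 of 8) and 18.1 to 26.2 in ex-HSC (1 of 8), against 27.9 to 94.1 in pre-HSC libraries (3 of 8). Cell cycle genes summed to 1180 to 1390 in FL-HSC and 816 to 1180 in ex-HSC, against 905 to 950 in pre-HSC libraries (8 of 8 in each). The part of other cell types in any difference below was not tested. Library totals ran from 553227 to 745619 FPKM. In ex-HSC replicate 2, 24992 genes were above 0, against 15622 to 18374 in the other libraries. Its median-of-ratios scaling factor, a measure of its general level, was 0.74, against 0.991 to 1.17 elsewhere.

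In ex-HSC, 38 of the 92 tested respiratory chain genes rose relative to pre-HSC and 1 fell. The shares were 41.3% and 1.09%, where 15.7% of all tested genes were called higher and 28.4% lower (44.1% in all). The 38 comprised 30 of 79 nuclear and 8 of 13 mitochondrial genes. The median log2 fold change was 0.42 for nuclear and 0.54 for mitochondrial genes, against -0.16 for all tested genes. In a bulk sample, fewer cells of a type and less RNA per cell cannot be told apart. After median-of-ratios scaling the median of all genes was -0.02 and the count of risers was 68, with 58 nuclear genes among them. The nuclear median stood above that of all genes by 0.58 as deposited, by 0.61 after that scaling and by 0.23 after quantile normalization. The mitochondrial median stood above it by 0.70 as deposited and by 0.13 after quantile normalization. Among all genes called, higher calls made up 35.6% as deposited and 48.5% after that scaling. The count of risers was 17 without pre-HSC replicate 1, 21 without pre-HSC replicate 2, 20 without ex-HSC replicate 1, 18 without ex-HSC replicate 3 and 56 without ex-HSC replicate 2. In the same order, 1551, 1638, 1611, 1561 and 3086 of all 13720 tested genes were called higher, against 2154 as deposited. After median-of-ratios scaling 3649 were.

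In FL-HSC, 25 of the 92 rose relative to pre-HSC and none fell by limma, with 0 also at an unadjusted p under 0.05. The share called higher, 27.2%, was near the 22.9% of all tested genes, whereas the share called lower was 0% beside a background of 20.4% (43.3% of all genes were called in either direction). The 25 comprised 21 nuclear and 4 mitochondrial genes. The median log2 fold change was 0.39 for nuclear and 0.34 for mitochondrial genes, against 0.13 for all genes. After quantile normalization the nuclear median was 0.15 and the mitochondrial median -0.02, against 0.12 for all genes. Without FL-HSC replicate 1, 5 were called higher, 3 of them nuclear, and the median was 0.14 for nuclear genes and 0.16 for all genes. Without pre-HSC replicate 1 the count was 16, where 2342 of all 13720 tested genes were called higher, against 3147 as deposited. Of the nuclear genes, 75 of 79 were higher in FL-HSC replicate 1 than in replicate 2, with a median log2 ratio of 0.54 beside 0 for all tested genes. Some genes were called lower under other scalings, 7 after quantile normalization against 25 called higher, 4 against 25 after scaling to equal sums, and 1 against 20 after median-of-ratios scaling.

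Between FL-HSC and ex-HSC, 3 of the 92 were higher in FL-HSC and 11 lower. The shares were 3.26% and 12%, where 24.1% of all tested genes were called higher and 9.15% lower (33.3% in all), so the share called lower was near the background as deposited. The 14 calls were 3 nuclear genes higher, 8 nuclear genes lower and 3 mitochondrial genes lower. The median log2 fold change was -0.05 for nuclear and -0.42 for mitochondrial genes, against 0.27 for all genes. After quantile normalization the medians were -0.16 for nuclear, -0.29 for mitochondrial and 0.05 for all genes, and without the filter they were -0.05, -0.42 and -0.03. The nuclear median was 0.04 without ex-HSC replicate 3, 0.21 without FL-HSC replicate 2 and 0.04 with a replicate block. Under median-of-ratios scaling the median of all genes was -0.02, and 2 members were higher and 29 lower. Of all 13720 tested genes 2455 were then called lower, a smaller share than the 29 of 92, against 1256 as deposited. Among all genes called, higher calls made up 72.5% as deposited and 50.4% after that scaling. The count called lower was 5 without pre-HSC replicate 1, 6 without pre-HSC replicate 2, 5 without ex-HSC replicate 1 and 3 without ex-HSC replicate 3. In the same order, 1144, 1199, 1018 and 1026 of all 13720 tested genes were called lower, against 1256 as deposited. Both comparisons with pre-HSC use the same 3 pre-HSC libraries, so each is given by its own values.

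**Figure D1:**
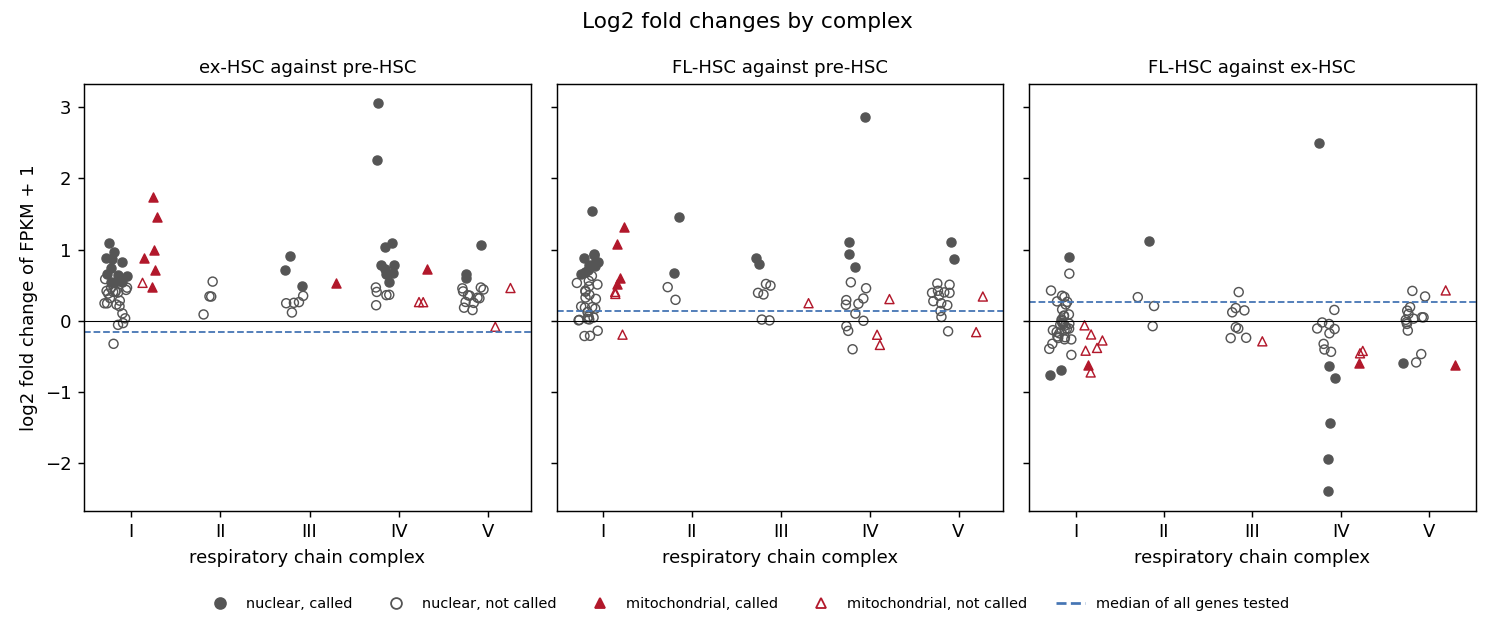
Log2 fold change of FPKM + 1 (y axis) of each tested subunit gene by complex (x axis), 1 panel per comparison. Circles are nuclear and triangles mitochondrial genes, filled where called, and the dashed line is the median of all 13720 tested genes (-0.16, 0.13 and 0.27 from left to right); most points of the left panel lie above that line.

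**Figure D2:**
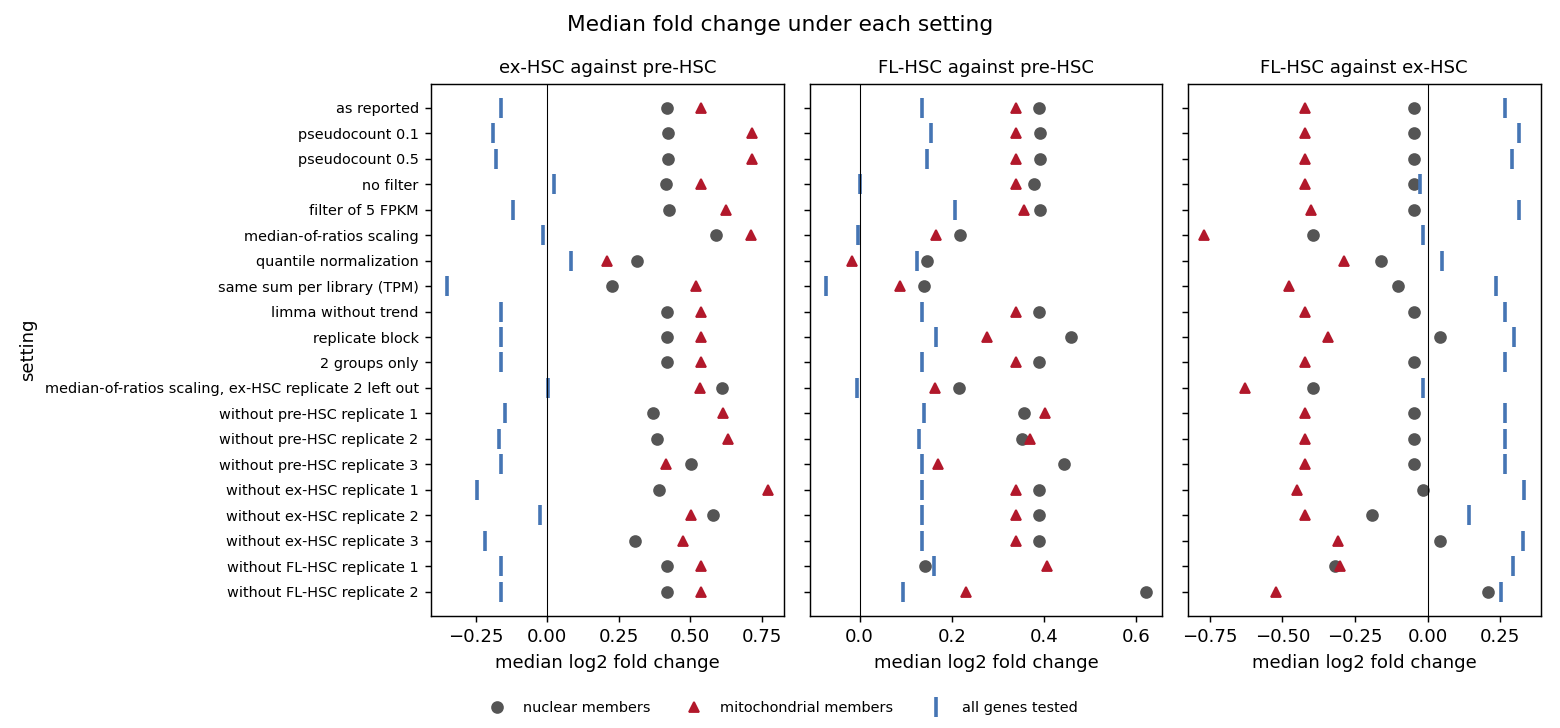
Median log2 fold change (x axis) of nuclear respiratory chain genes (circles), mitochondrial ones (triangles) and all tested genes (ticks) under each processing setting (y axis), 1 panel per comparison. The nuclear median stays above that of all genes in the left panel, and falls to 0.14, just under all genes at 0.16, in the middle panel when FL-HSC replicate 1 is left out.

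Complex I, the NADH dehydrogenase, contributed 14 risers among its 35 nuclear genes in ex-HSC against pre-HSC (5 to 20 with a library left out, 5 without ex-HSC replicate 3 or pre-HSC replicate 1, 6 without ex-HSC replicate 1, 7 without pre-HSC replicate 2) and 11 in FL-HSC against pre-HSC (1 to 15 with a library left out, 1 without FL-HSC replicate 1, 6 without pre-HSC replicate 1). These are 40% and 31.4% of the genes, beside 15.7% and 22.9% of all tested genes. In FL-HSC against ex-HSC, 1 was higher (0 to 2 with a library left out, 0 without FL-HSC replicate 1, 2 without FL-HSC replicate 2 or ex-HSC replicate 3) and 2 were lower (0 to 2 with a library left out, 0 without FL-HSC replicate 2 or ex-HSC replicate 3, 1 without ex-HSC replicate 1 or pre-HSC replicate 1 or 2). Those shares in FL-HSC against ex-HSC were 2.86% higher and 5.71% lower, both under the 24.1% and 9.15% of all tested genes. The largest rise in FL-HSC was that of Ndufa12, an accessory subunit of the matrix arm. It had 252 and 161 FPKM in the FL-HSC libraries, 111, 85.0 and 132 in the ex-HSC libraries and 65.6, 63.4 and 78.3 in the pre-HSC libraries. Both FL-HSC libraries lay above all others, and the ex-HSC and pre-HSC ranges did not overlap either. The log2 fold change of Ndufa12 was 1.54 ± 0.25 (SE, limma adjusted p = 0.000638) in FL-HSC against pre-HSC, 0.64 ± 0.22 (SE, limma adjusted p = 0.04) in ex-HSC against pre-HSC, and 0.90 ± 0.25 (SE, limma adjusted p = 0.0194) in FL-HSC against ex-HSC. The first call was kept under every setting, the second was lost under the unfiltered and untrended fits and without ex-HSC replicate 1 or 3 or pre-HSC replicate 1 or 2 (adjusted p from 0.05 to 0.142). The third was lost under the unfiltered, median-of-ratios and reduced median-of-ratios fits and without FL-HSC replicate 1 (adjusted p from 0.0568 to 0.179). Ndufa12 made up 4.09% ± 0.19 of the nuclear complex I FPKM in FL-HSC (SD, n = 2), against 2.14% ± 0.13 in ex-HSC (SD, n = 3).

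Ndufv3, an accessory subunit of the flavoprotein fraction, had 186 and 107 FPKM in FL-HSC and 188, 144 and 203 FPKM in ex-HSC, against 82.7, 69.3 and 96.9 FPKM in pre-HSC. All 3 ex-HSC libraries and both FL-HSC libraries lay above the pre-HSC range. Its log2 fold change was 1.10 ± 0.24 (SE, limma adjusted p = 0.00346) in ex-HSC against pre-HSC, a call kept under every setting tried. Ndufb10, an accessory subunit of the membrane arm, had 207 and 160.2 FPKM in the FL-HSC libraries, 206, 148 and 216 in the ex-HSC libraries and 87.1, 93.8 and 106 in the pre-HSC libraries. Neither FL-HSC nor ex-HSC overlapped with pre-HSC. On the log2 scale the change was 0.97 ± 0.20 (SE, limma adjusted p = 0.00221) in ex-HSC against pre-HSC, kept under every setting, and 0.93 ± 0.22 (SE, limma adjusted p = 0.00631) in FL-HSC against pre-HSC. The Ndufb10 call in FL-HSC against pre-HSC was lost without FL-HSC replicate 1 (adjusted p = 0.0695). Ndufa1, a small membrane-arm subunit needed for assembly of the complex, had 145 and 110.0 FPKM in FL-HSC and 241, 168 and 216 FPKM in ex-HSC, against 96.8, 113 and 124 FPKM in pre-HSC. The 3 ex-HSC libraries were the highest, and FL-HSC and pre-HSC overlapped. Its log2 fold change was 0.89 ± 0.20 (SE, limma adjusted p = 0.00405) in ex-HSC against pre-HSC, kept under every setting, and -0.70 ± 0.22 (SE, limma adjusted p = 0.0339) in FL-HSC against ex-HSC, and the second call was lost under the unfiltered and 2-group fits and without FL-HSC replicate 2 or ex-HSC replicate 1 or 3 or pre-HSC replicate 1 or 2 (adjusted p from 0.0514 to 0.228). Ndufc1, also of the membrane arm, had 37.3 and 27.7 FPKM in the FL-HSC libraries, 49.7, 50.6 and 66.5 in the ex-HSC libraries and 35.2, 38.6 and 38.9 in the pre-HSC libraries. The FL-HSC and ex-HSC ranges did not overlap, and the log2 fold change between them was -0.76 ± 0.21 (SE, limma adjusted p = 0.0203). The Ndufc1 call in FL-HSC against ex-HSC was lost under the 2-group fit and without FL-HSC replicate 2 or ex-HSC replicate 3 (adjusted p from 0.0615 to 0.173).

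Ndufv1, the subunit of complex I that binds NADH and flavin mononucleotide, had 186 and 119 FPKM in FL-HSC and 97.5, 75.4 and 111 FPKM in ex-HSC, against 73.5, 79.4 and 77.5 FPKM in pre-HSC. The FL-HSC range lay above both others, and the log2 fold change against pre-HSC was 0.94 ± 0.24 (SE, limma adjusted p = 0.00864). The Ndufv1 call in FL-HSC against pre-HSC was lost without FL-HSC replicate 1 (adjusted p = 0.113). Ndufs7, which holds the last iron-sulfur cluster before ubiquinone, also rose in FL-HSC against pre-HSC, with 222 and 174 FPKM in the FL-HSC libraries, 155, 118 and 171 in the ex-HSC libraries and 105, 103 and 124 in the pre-HSC libraries. Its call was lost without FL-HSC replicate 1 (adjusted p = 0.102). Ndufs1, an iron-sulfur subunit, had 38.4 and 47.2 FPKM in FL-HSC and 44.5, 34.3 and 42.0 FPKM in ex-HSC, against 39.1, 40.8 and 37.5 FPKM in pre-HSC, with overlapping groups in each comparison.

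Of the 4 genes of complex II, succinate dehydrogenase, 2 rose in FL-HSC against pre-HSC (1 to 3 with a library left out, 1 without FL-HSC replicate 1 or pre-HSC replicate 1 or 2) and 1 was higher in FL-HSC than in ex-HSC (1 with any library left out). Of all tested genes, 22.9% were called higher in FL-HSC against pre-HSC and 24.1% in FL-HSC against ex-HSC. In ex-HSC against pre-HSC limma called 0, with 1 at an unadjusted p under 0.05, and the count reached 3 after median-of-ratios scaling and without ex-HSC replicate 2. Sdha, the flavoprotein that oxidises succinate in the citric acid cycle, had 311 and 355 FPKM in the FL-HSC libraries, 188, 114 and 165 in the ex-HSC libraries and 119, 116 and 125 in the pre-HSC libraries. The FL-HSC libraries were the 2 highest, and ex-HSC and pre-HSC overlapped, with ex-HSC replicate 2 the lowest of all. The log2 fold change of Sdha was 1.46 ± 0.22 (SE, limma adjusted p = 0.000423) in FL-HSC against pre-HSC and 1.12 ± 0.22 (SE, limma adjusted p = 0.00385) in FL-HSC against ex-HSC, and both calls were kept under every setting tried. Sdhb, the iron-sulfur subunit, had 153 and 97.9 FPKM in FL-HSC and 141, 109 and 140.0 FPKM in ex-HSC, against 83.6, 81.6 and 99.99 FPKM in pre-HSC, and passed in no comparison. Sdhc, a membrane anchor, had 125 and 115 FPKM in the FL-HSC libraries, 97.1, 85.6 and 135 in the ex-HSC libraries and 92.6, 94.4 and 107 in the pre-HSC libraries, and passed in none either. Sdhd, the other membrane anchor, rose in FL-HSC against pre-HSC, with 184 and 138 FPKM in FL-HSC and 134, 105 and 144 FPKM in ex-HSC, against 92.1, 96.0 and 112 FPKM in pre-HSC. Its log2 fold change was 0.67 ± 0.21 (SE, limma adjusted p = 0.0271). The Sdhd call in FL-HSC against pre-HSC was lost without FL-HSC replicate 1 or pre-HSC replicate 1 or 2 (adjusted p from 0.0818 to 0.222). Sdha thus took 40.2% and 50.4% of the summed Sdh FPKM in the FL-HSC libraries and 33.5%, 27.5% and 28.3% in the ex-HSC libraries, against 30.7%, 29.8% and 28.2% in the pre-HSC libraries. These shares rest on FPKM, so they compare the genes per length.

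The promoters of Sdha, Sdhd and Sdhb are shown to set genes of 1 complex that rose in FL-HSC (Sdha and Sdhd) beside one that did not pass (Sdhb). Sdhc, which did not pass either, had no promoter entry and is not shown. The sequences are the 150 bases before the RefSeq start on GRCm38.p6, with matches to the NRF1 motif (GCGCA, any base, then GCGC) and to CCGGAAG (the ETS motif, bound by GABP among others) in capitals on either strand. Sdha lies at chr13:74350241-74350390 and Sdhd at chr9:50603850-50603999, both on the minus strand, and Sdhb at chr4:140961121-140961270 on the plus strand.
Sdha: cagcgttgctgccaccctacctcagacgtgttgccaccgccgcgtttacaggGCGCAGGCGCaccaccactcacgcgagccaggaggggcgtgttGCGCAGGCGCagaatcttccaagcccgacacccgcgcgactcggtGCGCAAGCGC
Sdhd: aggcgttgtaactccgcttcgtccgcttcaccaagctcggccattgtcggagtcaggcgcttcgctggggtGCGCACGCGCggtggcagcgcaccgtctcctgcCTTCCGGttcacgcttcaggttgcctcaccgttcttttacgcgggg
Sdhb: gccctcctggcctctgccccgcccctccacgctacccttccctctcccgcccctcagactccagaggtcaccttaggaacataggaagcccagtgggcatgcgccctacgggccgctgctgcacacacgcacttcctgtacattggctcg
Sdha holds 3 NRF1 matches and Sdhd 1 NRF1 and 1 ETS match. Sdhb holds none in the bases printed. Motif matches and calls did not go together throughout. In the 300 bases from 250 before to 50 after the start, Sdhb held an ETS match and Atp5g2 and Atp5g3 each an NRF1 match, although none of these genes passed in any comparison. Atp5g1 and Ndufa12, which rose in FL-HSC against pre-HSC, held no match there. Over all 66 nuclear respiratory chain genes with a promoter entry, searched in the same 300 bases, 24.2% held the NRF1 motif, against 10.3% of the promoters of tested genes and 4.78% of all 27025 promoters. The ETS motif was in 22.7%, against 17.8% of the promoters of tested genes and 9.12% of all. AAGATGGC, the YY1 motif, was in 12.1%, against 4.7% of the promoters of tested genes and 2.88% of all. A match describes the letters in the window and no binding was measured here.

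Complex III, the cytochrome bc1 complex, had 3 risers among 8 nuclear genes in ex-HSC against pre-HSC (1 to 4 with a library left out, 1 without ex-HSC replicate 1 or 3 or pre-HSC replicate 1) and 2 in FL-HSC against pre-HSC (0 to 5 with a library left out, 0 without FL-HSC replicate 1, 1 without pre-HSC replicate 1 or 2, 4 without FL-HSC replicate 2, 5 without ex-HSC replicate 2), and no call between FL-HSC and ex-HSC by limma, where 0 had an unadjusted p under 0.05. The rises are 37.5% and 25% of the genes, beside 15.7% and 22.9% of all tested genes, so the FL-HSC share was near the background. Uqcrq, a small subunit that contacts cytochrome b, had 272 and 159 FPKM in the FL-HSC libraries, 229, 201 and 245 in the ex-HSC libraries and 114, 115 and 129.8 in the pre-HSC libraries. Both FL-HSC and ex-HSC lay above the pre-HSC range. By limma the log2 fold change was 0.91 ± 0.21 (SE, limma adjusted p = 0.00492) in ex-HSC against pre-HSC, kept under every setting, and 0.79 ± 0.23 (SE, limma adjusted p = 0.0188) in FL-HSC against pre-HSC. The Uqcrq call in FL-HSC against pre-HSC was lost under the reduced median-of-ratios fit and without FL-HSC replicate 1 or pre-HSC replicate 1 or 2 (adjusted p from 0.0539 to 0.229). Uqcr11, another small subunit, had 460.3 and 329 FPKM in FL-HSC and 365, 278 and 402 FPKM in ex-HSC, against 186, 213 and 236 FPKM in pre-HSC, again without overlap with pre-HSC in either group. It was called higher in both, in ex-HSC lost without ex-HSC replicate 1 or 3 or pre-HSC replicate 1 (adjusted p from 0.0578 to 0.0777) and in FL-HSC lost without FL-HSC replicate 1 (adjusted p = 0.102). The catalytic Rieske protein gene Uqcrfs1 had 110.2 and 72.9 FPKM in the FL-HSC libraries, 109.5, 86.8 and 126 in the ex-HSC libraries and 83.2, 85.1 and 101 in the pre-HSC libraries, and passed in no comparison. The core proteins Uqcrc1 and Uqcrc2 did not pass in any comparison either. Uqcrc1 had 249 and 176 FPKM in FL-HSC and 164, 133 and 181 FPKM in ex-HSC, against 135, 141 and 164 FPKM in pre-HSC.

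Complex IV, cytochrome c oxidase, had 10 risers among 15 tested nuclear genes in ex-HSC against pre-HSC (4 to 14 with a library left out, 4 without ex-HSC replicate 1 or 3 or pre-HSC replicate 1, 5 without pre-HSC replicate 2). In FL-HSC against pre-HSC 4 rose (1 to 6 with a library left out, 1 without FL-HSC replicate 1), and in FL-HSC against ex-HSC 1 was higher and 5 were lower (3 to 6 with a library left out, 3 without FL-HSC replicate 2 or ex-HSC replicate 1 or 3 or pre-HSC replicate 1). The rises are 66.7% of the genes in ex-HSC and 26.7% in FL-HSC, beside 15.7% and 22.9% of all tested genes, and the lower calls are 33.3%, beside 9.15%. The 1 higher call in FL-HSC against ex-HSC is 6.67%, beside 24.1%. The ex-HSC rises and the lower calls include Cox6a2, which passed the filter through ex-HSC libraries alone. Cox4i2, Cox6b2 and Cox6a2, all tissue-restricted isoforms, had the largest log2 fold changes of the 92 tested genes. Cox4i2, an isoform of the regulatory subunit 4 known from lung and from oxygen sensing, had 11.6 and 7.57 FPKM in the FL-HSC libraries, 39.9, 36.2 and 41.6 in the ex-HSC libraries and 2.74, 4.57 and 4.36 in the pre-HSC libraries. The 3 ex-HSC libraries lay close together and far above the rest, the FL-HSC libraries came next, and no groups overlapped. In linear means ex-HSC stood 10.1-fold above pre-HSC. The log2 fold change was 3.06 ± 0.23 (SE, limma adjusted p = 1.36e-06) in ex-HSC against pre-HSC and -1.95 ± 0.25 (SE, limma adjusted p = 0.000324) in FL-HSC against ex-HSC, both kept under every setting. In FL-HSC against pre-HSC it was 1.11 ± 0.25 (SE, limma adjusted p = 0.00512). The Cox4i2 call in FL-HSC against pre-HSC was lost without FL-HSC replicate 1 (adjusted p = 0.0628). Even in ex-HSC the level of Cox4i2 was 0.778% ± 0.08 of the nuclear complex IV FPKM (SD, n = 3). That sum does not hold Cox4i1, so the value is not a share of subunit 4.

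Cox6a2, the heart and skeletal muscle isoform of subunit 6a, had 0.054 and 0.362 FPKM in FL-HSC and 8.74, 5.79 and 2.83 FPKM in ex-HSC, against 0.883, 0 and 0.232 FPKM in pre-HSC. It was low in every FL-HSC and pre-HSC library and higher in each ex-HSC library, with a wide spread among those. On the log2 scale the change was 2.26 ± 0.35 (SE, limma adjusted p = 0.000326) in ex-HSC against pre-HSC and -2.40 ± 0.39 (SE, limma adjusted p = 0.00114) in FL-HSC against ex-HSC. Cox6a2 passed the filter of 1 FPKM through ex-HSC libraries alone, so these p-values are no support for its higher level there. It is also among the complex IV and isoform counts. Its partner Cox6a1, the isoform of most tissues, had 829 and 577 FPKM in the FL-HSC libraries, 809.9, 628 and 818 in the ex-HSC libraries and 431, 448 and 557 in the pre-HSC libraries, and Cox6a2 made up at most 1.07% of the pair in any library. The call of Cox6a1 in ex-HSC against pre-HSC was lost under the unfiltered and quantile fits and without ex-HSC replicate 1 or 3 or pre-HSC replicate 1 or 2 (adjusted p from 0.0592 to 0.0979). Cox7a1, the heart and skeletal muscle isoform of subunit 7a, had 3.73 and 1.78 FPKM in FL-HSC and 11.9, 6.52 and 8.90 FPKM in ex-HSC, against 4.24, 3.47 and 3.71 FPKM in pre-HSC. The ex-HSC libraries lay above all others, and FL-HSC and pre-HSC overlapped. By limma the log2 fold change was 1.04 ± 0.27 (SE, limma adjusted p = 0.00847) in ex-HSC against pre-HSC and -1.44 ± 0.30 (SE, limma adjusted p = 0.00445) in FL-HSC against ex-HSC. Cox7a1 kept both of its calls under every setting. Cox7a2, the partner expressed in most tissues, had 160.5 and 108 FPKM in the FL-HSC libraries, 197, 146 and 199 in the ex-HSC libraries and 99.5, 106 and 131 in the pre-HSC libraries, and was called higher in ex-HSC than in pre-HSC. The Cox7a2 call in ex-HSC against pre-HSC was lost under the unfiltered fit and without ex-HSC replicate 1 or 3 or pre-HSC replicate 1 or 2 (adjusted p from 0.0567 to 0.0986).

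Cox6b2, the testis isoform of subunit 6b, was highest in FL-HSC, with 81.9 and 72.6 FPKM in FL-HSC and 15.4, 7.70 and 17.5 FPKM in ex-HSC, against 10.8, 8.33 and 10.2 FPKM in pre-HSC. Both FL-HSC libraries stood far above the other 6, and ex-HSC and pre-HSC overlapped. In linear means FL-HSC stood 7.88-fold above pre-HSC. The log2 fold change was 2.86 ± 0.30 (SE, limma adjusted p = 3.12e-05) in FL-HSC against pre-HSC and 2.50 ± 0.30 (SE, limma adjusted p = 0.000219) in FL-HSC against ex-HSC, both kept under every setting. Its partner Cox6b1, found in most tissues, had 594 and 377 FPKM in the FL-HSC libraries, 533, 442 and 575 in the ex-HSC libraries and 393, 442 and 496 in the pre-HSC libraries, with overlapping groups and no call. Cox6b2 thus supplied 12.1% and 16.2% of the pair's FPKM in the FL-HSC libraries and 2.81%, 1.71% and 2.96% in the ex-HSC libraries, against 2.68%, 1.85% and 2.02% in the pre-HSC libraries. Of 5 tested tissue-restricted isoform genes, these 4 and Ndufa4l2, 3 rose in ex-HSC against pre-HSC (3 to 4 with a library left out), 3 rose in FL-HSC against pre-HSC (1 to 3 with a library left out, 1 without FL-HSC replicate 1), and 2 were higher and 3 lower in FL-HSC relative to ex-HSC (1 to 2 higher with a library left out, fewest without FL-HSC replicate 1). In that order the shares are 60%, 60%, 40% and 60%, beside 15.7%, 22.9%, 24.1% and 9.15% of all tested genes. Cox6a2, which passed the filter through ex-HSC libraries alone, is among the 3 ex-HSC risers and the 3 lower calls. Ndufa4l2, a relative of Ndufa4 that the symbol pattern did not take in, had 3.90 and 2.68 FPKM in FL-HSC and 1.52, 1.02 and 0.449 FPKM in ex-HSC, against 1.13, 0.884 and 0.34 FPKM in pre-HSC. Both FL-HSC libraries lay above the rest at a low level.

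The promoters of this pair are shown because one gene changed severalfold and its partner did not pass. They are again the 150 bases before the RefSeq start on GRCm38.p6 with motif matches in capitals. Cox6b2 lies at chr7:4753095-4753244 and Cox6b1 at chr7:30626115-30626264, both on the minus strand.
Cox6b2: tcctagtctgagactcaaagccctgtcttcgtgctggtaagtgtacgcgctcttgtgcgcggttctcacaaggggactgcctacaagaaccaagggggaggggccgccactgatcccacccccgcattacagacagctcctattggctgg
Cox6b1: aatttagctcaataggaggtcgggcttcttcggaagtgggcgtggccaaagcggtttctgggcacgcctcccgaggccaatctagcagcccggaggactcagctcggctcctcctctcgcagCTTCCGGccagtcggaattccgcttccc
Cox6b1 holds 1 ETS match and Cox6b2 none of the 3 motifs.

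**Figure D3:**
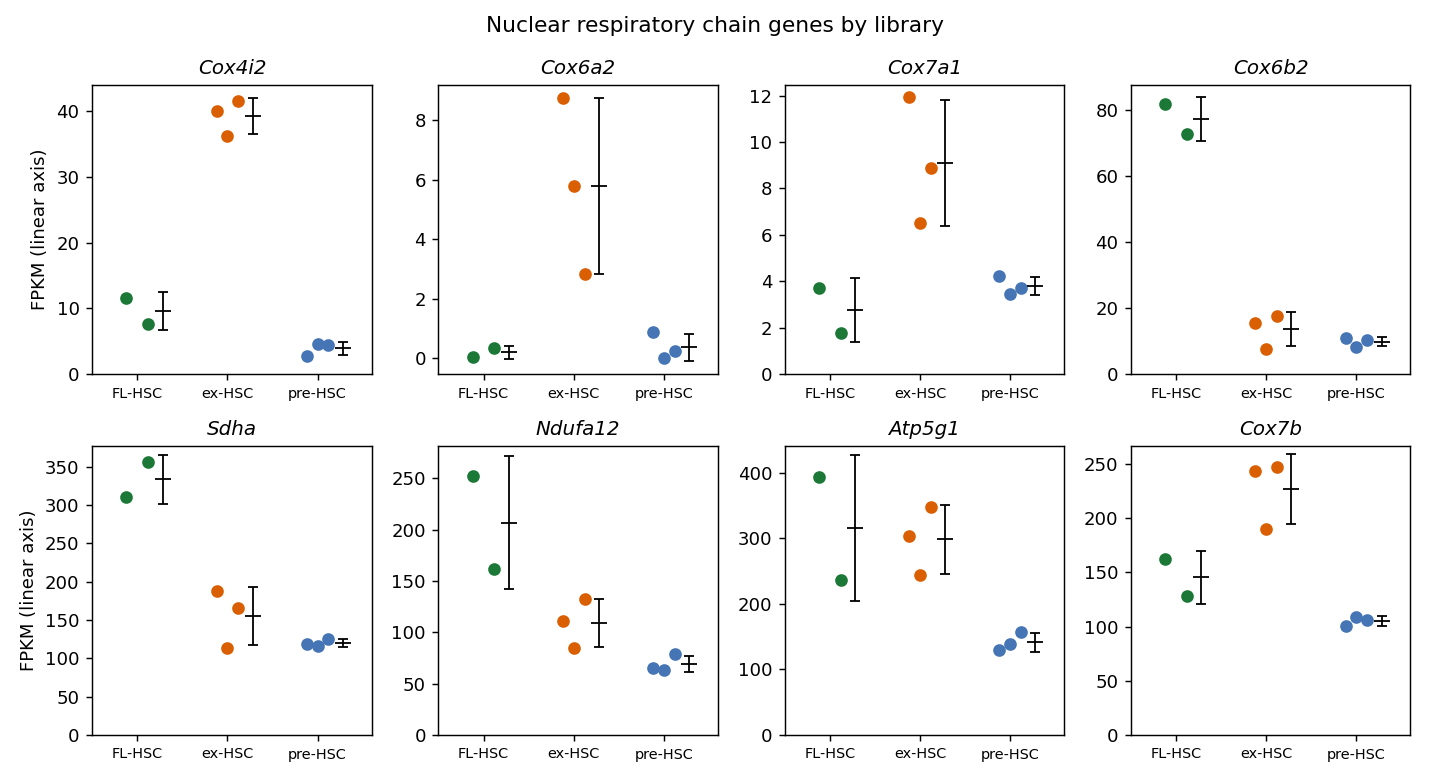
FPKM (linear y axis) of 8 nuclear respiratory chain genes in each library of FL-HSC, ex-HSC and pre-HSC (x axis), with the mean and SD in black (n = 2, 3 and 3). Cox4i2, Cox6a2 and Cox7a1 peak in ex-HSC (Cox4i2 36.2 to 41.6 FPKM), whereas Cox6b2 (72.6 to 81.9 FPKM), Sdha and Ndufa12 peak in FL-HSC.

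Among the widely expressed subunits, Cox7b, a small membrane subunit, had 163 and 128 FPKM in the FL-HSC libraries, 244, 190.0 and 247 in the ex-HSC libraries and 100.2, 109 and 106 in the pre-HSC libraries. All ex-HSC libraries lay above FL-HSC and those above pre-HSC. Its log2 fold change was 1.10 ± 0.18 (SE, limma adjusted p = 0.00047) in ex-HSC against pre-HSC, kept under every setting, and -0.64 ± 0.20 (SE, limma adjusted p = 0.0298) in FL-HSC against ex-HSC. The Cox7b call in FL-HSC against ex-HSC was lost under the 2-group fit and without FL-HSC replicate 2 or ex-HSC replicate 1 or 3 or pre-HSC replicate 1 or 2 (adjusted p from 0.0559 to 0.208). Cox5a, a matrix-side subunit, had 223 and 133 FPKM in FL-HSC and 297, 254 and 360.2 FPKM in ex-HSC, against 176, 164 and 208 FPKM in pre-HSC, with FL-HSC and pre-HSC overlapping below ex-HSC. It was called higher in ex-HSC than in pre-HSC, lost under the unfiltered fit and without ex-HSC replicate 1 or 3 or pre-HSC replicate 1 or 2 (adjusted p from 0.0579 to 0.0851), and lower in FL-HSC relative to ex-HSC. The Cox5a call in FL-HSC against ex-HSC was lost under the unfiltered and 2-group fits and without FL-HSC replicate 2 or ex-HSC replicate 1 or 3 or pre-HSC replicate 1 (adjusted p from 0.051 to 0.283). Cox5b, which binds zinc on the matrix side, had 870.5 and 582 FPKM in the FL-HSC libraries, 688, 504 and 759 in the ex-HSC libraries and 327, 356 and 439 in the pre-HSC libraries. Here FL-HSC and ex-HSC overlapped, and both lay above pre-HSC. Its log2 fold change was 0.94 ± 0.25 (SE, limma adjusted p = 0.0111) in FL-HSC against pre-HSC. The Cox5b call in FL-HSC against pre-HSC was lost without FL-HSC replicate 1 (adjusted p = 0.113). Cox5b was called in ex-HSC against pre-HSC as well, which was lost under the unfiltered fit and without ex-HSC replicate 1 or 3 or pre-HSC replicate 1 (adjusted p from 0.0527 to 0.067). Cox8a, the isoform of subunit 8 found in most tissues, had 668 and 453 FPKM in FL-HSC and 601, 437 and 669 FPKM in ex-HSC, against 293, 301 and 393 FPKM in pre-HSC, and was called higher in both groups against pre-HSC. In ex-HSC that call was lost under the unfiltered fit and without ex-HSC replicate 1 or 3 or pre-HSC replicate 1 or 2 (adjusted p from 0.0555 to 0.0686), and in FL-HSC lost under the unfiltered and reduced median-of-ratios fits and without FL-HSC replicate 1 or ex-HSC replicate 1 or pre-HSC replicate 1 or 2 (adjusted p from 0.0505 to 0.248). Ndufa4 had 623 and 428 FPKM in the FL-HSC libraries, 558, 444 and 614 in the ex-HSC libraries and 399, 411 and 439.8 in the pre-HSC libraries, and Cox7a2l, a factor of supercomplex formation, had 159 and 140.0 FPKM in FL-HSC and 218, 155 and 230.2 FPKM in ex-HSC, against 138, 145 and 167 FPKM in pre-HSC, and neither passed in any comparison.

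Complex V had 3 risers among 15 tested nuclear genes in ex-HSC (1 to 9 with a library left out, 1 without pre-HSC replicate 1 or 2, 9 without ex-HSC replicate 2) and 2 in FL-HSC (0 to 4 with a library left out, 0 without FL-HSC replicate 1, 4 without ex-HSC replicate 2), each against pre-HSC. In FL-HSC against ex-HSC, 1 was lower (0 to 1 with a library left out, 0 without FL-HSC replicate 2 or ex-HSC replicate 1 or 3 or pre-HSC replicate 1, 2 or 3). The rises are 20% of the genes in ex-HSC, near the 15.7% of all tested genes, and 13.3% in FL-HSC, under the 22.9% of all tested genes. The 1 lower call in FL-HSC against ex-HSC is 6.67%, near the 9.15% of all tested genes. Atp5g1 is 1 of 3 genes that encode the same c subunit of the rotor ring, each with its own import sequence. It had 394 and 237 FPKM in the FL-HSC libraries, 304, 244 and 348 in the ex-HSC libraries and 129, 138 and 157 in the pre-HSC libraries. FL-HSC and ex-HSC overlapped, and both lay above pre-HSC. On the log2 scale the change was 1.06 ± 0.22 (SE, limma adjusted p = 0.00254) in ex-HSC against pre-HSC, kept under every setting, and 1.11 ± 0.25 (SE, limma adjusted p = 0.0043) in FL-HSC against pre-HSC. The Atp5g1 call in FL-HSC against pre-HSC was lost without FL-HSC replicate 1 (adjusted p = 0.0589). Atp5g2 had 727 and 492 FPKM in FL-HSC and 502, 353 and 594 FPKM in ex-HSC, against 383, 393 and 479 FPKM in pre-HSC, and Atp5g3 had 707 and 495 FPKM in the FL-HSC libraries, 681, 522 and 777 in the ex-HSC libraries and 468, 503 and 559 in the pre-HSC libraries. Neither passed in any comparison. Atp5g1 therefore supplied 21.6% and 19.4% of the 3 genes' FPKM in FL-HSC and 20.5%, 21.8% and 20.2% in ex-HSC, against 13.2%, 13.4% and 13.1% in pre-HSC libraries, with no overlap with the last. How the authors' counting treated reads shared by the near-identical mature parts of these 3 genes is not given in the sources used here.

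The catalytic beta subunit gene Atp5b was the highest nuclear respiratory chain gene, with 2841 and 1948 FPKM in FL-HSC and 1919.5, 1472 and 1930.0 FPKM in ex-HSC, against 1199, 1289 and 1372 FPKM in pre-HSC. It rose in FL-HSC against pre-HSC, log2 fold change 0.87 ± 0.22 (SE, limma adjusted p = 0.0085). The Atp5b call in FL-HSC against pre-HSC was lost without FL-HSC replicate 1 (adjusted p = 0.0764). Its partner in the catalytic head, Atp5a1, had 693 and 539 FPKM in the FL-HSC libraries, 578, 431 and 615 in the ex-HSC libraries and 412, 418 and 463 in the pre-HSC libraries, and did not pass. Atp5f1, part of the peripheral stalk, had 169.5 and 148 FPKM in FL-HSC and 258, 202 and 268 FPKM in ex-HSC, against 142, 147 and 171 FPKM in pre-HSC. All 3 ex-HSC libraries lay above the others, and FL-HSC and pre-HSC overlapped. Its call in ex-HSC against pre-HSC was lost without pre-HSC replicate 1 or 2 (adjusted p from 0.052 to 0.0606), and that in FL-HSC against ex-HSC was lost under the unfiltered, untrended, blocked and 2-group fits and without FL-HSC replicate 1 or 2 or ex-HSC replicate 1 or 3 or pre-HSC replicate 1, 2 or 3 (adjusted p from 0.053 to 0.192). Atp5s, which encodes the coupling factor B and is no subunit, was the only called fall in ex-HSC against pre-HSC. It had 3.86 and 4.50 FPKM in the FL-HSC libraries, 2.24, 2.41 and 2.42 in the ex-HSC libraries and 3.16, 4.97 and 5.02 in the pre-HSC libraries, with log2 fold change -0.66 ± 0.21 (SE, limma adjusted p = 0.0257). That call was lost under the unfiltered, median-of-ratios and quantile fits and without ex-HSC replicate 1 or 3 or pre-HSC replicate 2 or 3 (adjusted p from 0.0528 to 0.448).

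The 13 mitochondrial genes are transcribed from the circular genome as long precursors, which are then cut, and all but mt-Nd6 lie on the same strand. On GRCm38 there are 4 overlaps among them, and the 3 longest are shown because a read that spans one touches both genes. The last 43 bases of mt-Atp8 are the first of mt-Atp6 (chrM:7927-7969), mt-Nd4l and mt-Nd4 share 7 bases (chrM:10167-10173), and mt-Nd5 and mt-Nd6 meet tail to tail over 14 bases on opposite strands (chrM:13552-13565). The fourth is the single base at position 8607 of chrM, shared by mt-Atp6 and mt-Co3. The plus strand is printed in each case.
mt-Atp8 and mt-Atp6: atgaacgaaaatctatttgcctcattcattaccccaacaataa
mt-Nd4l and mt-Nd4: atgctaa
mt-Nd5 and mt-Nd6: ttaatctcgagtaa
The library kit did not mark strand, so reads of mt-Nd6 and reads antisense to it cannot be told apart. How the authors' counting treated reads in these overlaps is not given in the sources used here. Levels of the overlapping genes may therefore not be comparable with each other.

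Of the 7 mitochondrial NADH dehydrogenase genes, 6 rose in ex-HSC against pre-HSC, together with mt-Cytb of complex III and mt-Co2 of complex IV. The 6 are 85.7% of the 7, beside 15.7% of all tested genes. In FL-HSC against pre-HSC 4 of the 7 rose (57.1%, beside 22.9%). In FL-HSC against ex-HSC 1 was lower (14.3%, beside 9.15%). The largest change of a mitochondrial gene was that of mt-Nd6, a membrane subunit, which had 565 and 648 FPKM in FL-HSC and 729, 771 and 952 FPKM in ex-HSC, against 213, 244 and 277 FPKM in pre-HSC. Both FL-HSC and ex-HSC lay above pre-HSC, and ex-HSC above FL-HSC. By limma the log2 fold change was 1.73 ± 0.18 (SE, limma adjusted p = 1.68e-05) in ex-HSC against pre-HSC and 1.31 ± 0.20 (SE, limma adjusted p = 0.000406) in FL-HSC against pre-HSC. Its neighbour mt-Nd5, a proton-pumping subunit, had 545 and 609.6 FPKM in the FL-HSC libraries, 699.8, 712 and 855 in the ex-HSC libraries and 263, 286 and 270.0 in the pre-HSC libraries, with the same order of groups. The log2 fold change was 1.46 ± 0.16 (SE, limma adjusted p = 2.7e-05) in ex-HSC against pre-HSC and 1.07 ± 0.18 (SE, limma adjusted p = 0.000722) in FL-HSC against pre-HSC. All 4 calls were kept under every setting. Since strand was not marked, the mt-Nd6 values may hold antisense reads, and the 4 calls may not be of separate signals. mt-Nd5 and mt-Nd6 made up 4.22% ± 0.08 of the mitochondrial FPKM in FL-HSC (SD, n = 2) and 4.71% ± 0.29 in ex-HSC (SD, n = 3), against 2.09% ± 0.35 in pre-HSC (SD, n = 3).

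The pumping subunit mt-Nd4 had 863 and 864 FPKM in FL-HSC and 1238, 1306 and 1448 FPKM in ex-HSC, against 685, 681 and 631 FPKM in pre-HSC. Its log2 fold change was 1.00 ± 0.15 (SE, limma adjusted p = 0.000339) in ex-HSC against pre-HSC, kept under every setting. In FL-HSC against ex-HSC it was -0.62 ± 0.17 (SE, limma adjusted p = 0.0187). The mt-Nd4 call in FL-HSC against ex-HSC was lost under the quantile and 2-group fits and without FL-HSC replicate 1 or 2 or ex-HSC replicate 3 (adjusted p from 0.052 to 0.117). mt-Nd2, also a pumping subunit, had 738 and 746 FPKM in the FL-HSC libraries, 822, 912 and 975 in the ex-HSC libraries and 535, 517 and 421 in the pre-HSC libraries, with log2 fold change 0.88 ± 0.17 (SE, limma adjusted p = 0.00133) in ex-HSC against pre-HSC, kept under every setting. mt-Nd3, a small membrane subunit, had 1784 and 1754 FPKM in FL-HSC and 1876, 1984 and 2229 FPKM in ex-HSC, against 1275, 1097 and 1339 FPKM in pre-HSC, without overlap of either group with pre-HSC. Its call in ex-HSC against pre-HSC was lost under the quantile fit (adjusted p = 0.196). In FL-HSC against pre-HSC mt-Nd2 and mt-Nd3 were called too, the mt-Nd2 call lost under the unfiltered, median-of-ratios, quantile, equal-sum and reduced median-of-ratios fits and without FL-HSC replicate 1 or 2 or pre-HSC replicate 2 or 3 (adjusted p from 0.0511 to 0.141) and the mt-Nd3 call lost under the unfiltered, median-of-ratios, quantile, equal-sum, untrended, 2-group and reduced median-of-ratios fits and without FL-HSC replicate 1 or 2 or ex-HSC replicate 1 or pre-HSC replicate 1, 2 or 3 (adjusted p from 0.0548 to 0.483). mt-Nd1, which forms part of the ubiquinone site, had 1838 and 2128 FPKM in the FL-HSC libraries, 1849.7, 2102 and 2282 in the ex-HSC libraries and 1644, 1545 and 1315 in the pre-HSC libraries. Its call in ex-HSC against pre-HSC, with fold change (log2) 0.47 ± 0.17 (SE, limma adjusted p = 0.0464), turned to -0.077 after quantile normalization and was lost under the low-pseudocount, unfiltered, equal-sum, untrended and reduced median-of-ratios fits and without ex-HSC replicate 1, 2 or 3 or pre-HSC replicate 1, 2 or 3 (adjusted p from 0.0511 to 0.217). mt-Nd4l was near 0, with 0 and 0.343 FPKM in FL-HSC and 0, 1.31 and 2.06 FPKM in ex-HSC, against 0, 1.34 and 0 FPKM in pre-HSC, although mt-Nd3 and mt-Nd4 on either side stood far higher, and it passed in no comparison.

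Of the other complexes, mt-Cytb, the cytochrome b of complex III, had 1883 and 2273 FPKM in the FL-HSC libraries, 2226, 2647 and 2752 in the ex-HSC libraries and 1946, 1855 and 1472 in the pre-HSC libraries. The catalytic oxidase subunit mt-Co1 had 3350.3 and 4591 FPKM in FL-HSC and 5461, 4854 and 5914 FPKM in ex-HSC, against 4804, 4423 and 4290.2 FPKM in pre-HSC. ex-HSC lay above pre-HSC in both, for mt-Co1 by a narrow margin. The call of mt-Cytb in ex-HSC against pre-HSC, with fold change (log2) 0.54 ± 0.18 (SE, limma adjusted p = 0.0345), was lost under the unfiltered, quantile, equal-sum and reduced median-of-ratios fits and without ex-HSC replicate 2 or 3 or pre-HSC replicate 1, 2 or 3 (adjusted p from 0.0631 to 0.956). mt-Co2, which receives electrons from cytochrome c, had 4176 and 4818 FPKM in the FL-HSC libraries, 5504, 6458 and 6156 in the ex-HSC libraries and 4169, 3806 and 3027 in the pre-HSC libraries, and rose in ex-HSC against pre-HSC with log2 fold change 0.73 ± 0.18 (SE, limma adjusted p = 0.00749). The mt-Co2 call in ex-HSC against pre-HSC was lost under the unfiltered and quantile fits (adjusted p from 0.0931 to 0.158). mt-Co3, a core subunit without a redox centre, had 3396 and 3932 FPKM in FL-HSC and 5375, 5234 and 6056 FPKM in ex-HSC, against 4794, 4221 and 4905 FPKM in pre-HSC, with FL-HSC below both other groups. In FL-HSC against ex-HSC it was called lower, log2 fold change -0.60 ± 0.19 (SE, limma adjusted p = 0.0298). The mt-Co3 call in FL-HSC against ex-HSC was lost under the unfiltered, quantile and 2-group fits and without FL-HSC replicate 1 or ex-HSC replicate 1 or 3 or pre-HSC replicate 1, 2 or 3 (adjusted p from 0.0536 to 0.225). mt-Atp6, the proton channel subunit, had 453 and 447 FPKM in the FL-HSC libraries, 626, 749.6 and 705 in the ex-HSC libraries and 606, 515 and 408 in the pre-HSC libraries, and mt-Atp8, its small partner, had 6387 and 7426 FPKM in FL-HSC and 4652, 5217 and 5560.0 FPKM in ex-HSC, against 6717, 5676 and 4232 FPKM in pre-HSC. The order of groups was not the same for these overlapping genes, since mt-Atp8 stood highest in FL-HSC by mean and mt-Atp6 lowest. Whether the counting of shared reads had a part in this was not tested. In FL-HSC against ex-HSC mt-Atp6 was called lower, log2 fold change -0.62 ± 0.20 (SE, limma adjusted p = 0.039). The mt-Atp6 call in FL-HSC against ex-HSC was lost under the unfiltered, quantile, untrended and 2-group fits and without FL-HSC replicate 1 or 2 or ex-HSC replicate 1, 2 or 3 or pre-HSC replicate 1 or 2 (adjusted p from 0.0535 to 0.125).

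The mt-Nd genes made up 24.4% and 22.3% of the mitochondrial FPKM in FL-HSC and 23.2%, 23.6% and 24.4% in ex-HSC, against 16.7%, 17.6% and 18.8% in pre-HSC. No FL-HSC or ex-HSC library overlapped with pre-HSC. The mitochondrial FPKM include mt-Atp8, a gene of 204 bases with 4232 to 7426 FPKM in the 8 libraries. FPKM is less sure for short genes, so this share and that of mt-Nd5 and mt-Nd6 depend on the mt-Atp8 values. The mitochondrial ribosomal RNAs, which carry short poly(A) tails, were outside the 96 genes. mt-Rnr1 had 1151 and 434 FPKM in FL-HSC and 537, 441 and 457 FPKM in ex-HSC, against 214, 176 and 231 FPKM in pre-HSC. mt-Rnr2 had 475 and 277 FPKM in FL-HSC and 508, 443 and 439 FPKM in ex-HSC, against 171, 121 and 190.2 FPKM in pre-HSC. Whether the capture of mitochondrial RNA by poly(A) selection differed between libraries was not tested.

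**Figure D4:**
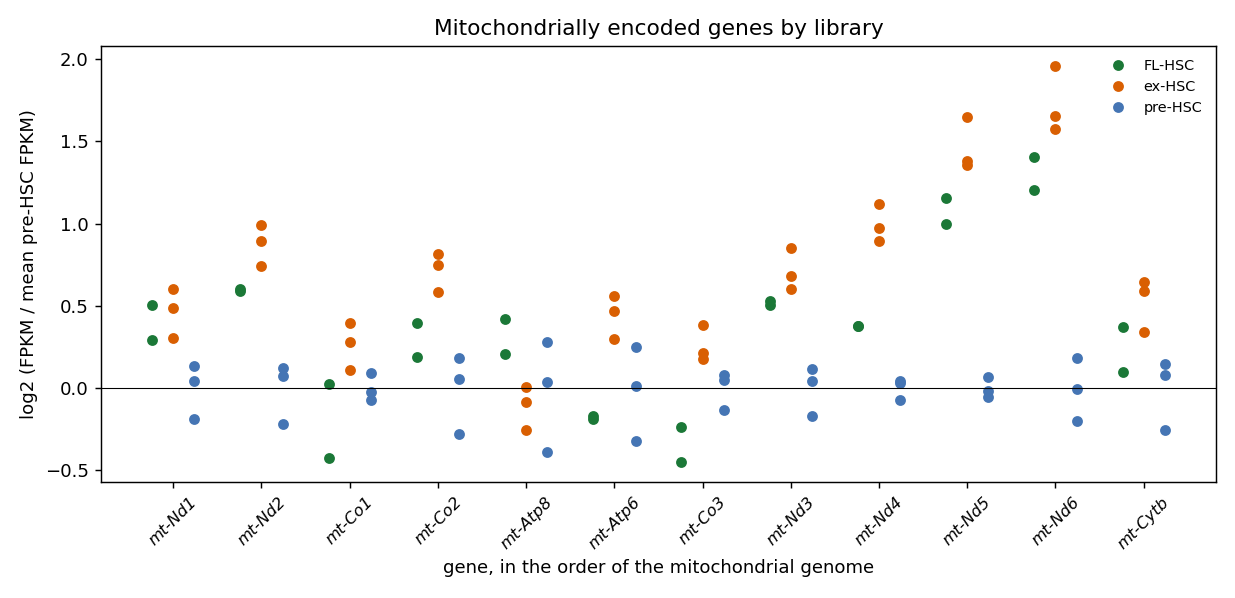
Log2 ratio of each library's FPKM to the pre-HSC mean (y axis) for 12 mitochondrial genes in genome order (x axis), with mt-Nd4l left out because it was near 0. Points are libraries of FL-HSC, ex-HSC and pre-HSC; mt-Nd5 and mt-Nd6 stand highest, while mt-Co1, mt-Atp6 and mt-Co3 in FL-HSC lie near or under the pre-HSC mean.

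Summed over complexes, nuclear respiratory chain genes held 3.22% and 2.57% of all FPKM in FL-HSC and 2.86%, 2.94% and 3.07% in ex-HSC, against 2.35%, 2.38% and 2.65% in pre-HSC. FL-HSC replicate 2 thus fell within the pre-HSC range, and ex-HSC lay above it. Mitochondrial genes held 3.48% and 4.70% in FL-HSC and 4.27%, 5.96% and 4.88% in ex-HSC, against 4.90%, 4.30% and 3.74% in pre-HSC, with overlap of all groups. Mitochondrial genes made up 52% and 64.7% of the respiratory chain FPKM in FL-HSC and 59.9%, 67% and 61.4% in ex-HSC, against 67.6%, 64.4% and 58.5% in pre-HSC. These sums too hold the short gene mt-Atp8 and rest on its FPKM.

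**Figure D5:**
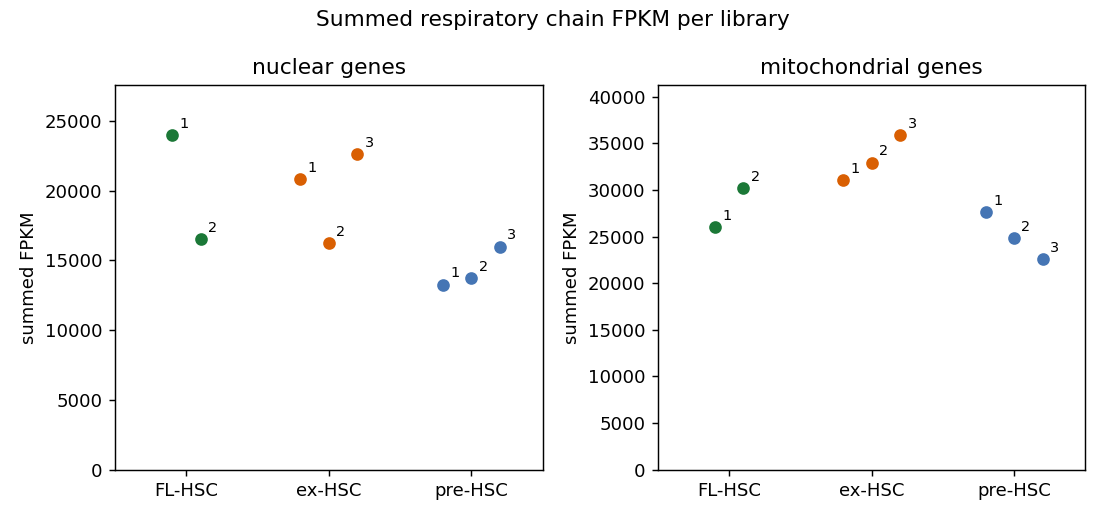
Summed FPKM (linear y axis from 0) of nuclear (left) and mitochondrial (right) respiratory chain genes in each library of FL-HSC, ex-HSC and pre-HSC (x axis), with the replicate number beside each point. Nuclear sums are 23980.3 and 16503.7 in FL-HSC, and FL-HSC replicate 2 and ex-HSC replicate 2 are the low points of their groups.

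Genes that build, supply or control the chain were read from lists of known function. Assembly factors of complex I were higher in ex-HSC than in pre-HSC for 4 of 15, in FL-HSC than in pre-HSC for 9 of 15, and in FL-HSC than in ex-HSC for 3 of 15, with none lower by limma (1, 0 and 0 at an unadjusted p under 0.05). For complex IV the counts were 3, 9 and 4 of 22, again with none lower by limma (0, 0 and 1 unadjusted). The shares for complex I were 26.7%, 60% and 20%, and those for complex IV 13.6%, 40.9% and 18.2%, beside 15.7%, 22.9% and 24.1% of all tested genes called higher. The shares in FL-HSC against pre-HSC thus lay above the background, and those in FL-HSC against ex-HSC below it. The complex I rises numbered 3 to 10 with a library left out, 3 without FL-HSC replicate 1, 5 without pre-HSC replicate 1, in FL-HSC, and 0 to 7 with a library left out, 0 without ex-HSC replicate 3 or pre-HSC replicate 1, 1 without pre-HSC replicate 2, 2 without ex-HSC replicate 1, 7 without ex-HSC replicate 2, in ex-HSC, each against pre-HSC. The complex IV rises numbered 3 to 14 with a library left out, 3 without FL-HSC replicate 1, 14 without ex-HSC replicate 2, in FL-HSC, and 3 to 9 with a library left out, 9 without ex-HSC replicate 2, in ex-HSC. Without FL-HSC replicate 1 the count higher in FL-HSC than in ex-HSC was 1 for each complex. For complex V the counts higher, in the same order of comparisons, were 1, 3 and 2 of 5, for complex III 0, 2 and 1 of 5, and for complex II 1, 0 and 0 of 2. The shares were 20%, 60% and 40% for complex V, 0%, 40% and 20% for complex III, and 50%, 0% and 0% for complex II. The background shares are again 15.7%, 22.9% and 24.1%. In FL-HSC against pre-HSC the complex V count was 1 to 3 with a library left out, 1 without FL-HSC replicate 1, and the complex III count was 1 to 2 with a library left out, 1 without FL-HSC replicate 1 or pre-HSC replicate 2. The counts of 1 and 2 in the other comparisons of complexes III and V also changed with single libraries left out. The median log2 fold change of complex I and IV assembly factors in FL-HSC against pre-HSC was 0.74 and 0.55, beside 0.13 for all genes. Cox17, the copper chaperone of cytochrome c oxidase, had 309.9 and 202 FPKM in the FL-HSC libraries, 220.3, 161 and 189 in the ex-HSC libraries and 81.9, 81.3 and 89.1 in the pre-HSC libraries. Both FL-HSC and ex-HSC lay above pre-HSC, with log2 fold changes 1.56 ± 0.22 (SE, limma adjusted p = 0.000273) in FL-HSC and 1.16 ± 0.20 (SE, limma adjusted p = 0.000792) in ex-HSC against pre-HSC, both kept under every setting. Cox15, which makes heme A for the oxidase, had 34.9 and 32.8 FPKM in FL-HSC and 19.4, 12.3 and 16.7 FPKM in ex-HSC, against 17.7, 16.8 and 17.5 FPKM in pre-HSC, with both FL-HSC libraries above all others. Ecsit, a complex I assembly factor, had 29.3 and 22.2 FPKM in the FL-HSC libraries, 18.3, 14.8 and 19.5 in the ex-HSC libraries and 9.26, 11.2 and 10.3 in the pre-HSC libraries, with pre-HSC lowest. Atpaf2, a chaperone of the ATP synthase alpha subunit, had 95.6 and 61.6 FPKM in FL-HSC and 47.0, 30.8 and 44.9 FPKM in ex-HSC, against 23.2, 30.1 and 32.6 FPKM in pre-HSC, and its rise in FL-HSC against pre-HSC was 1.41 ± 0.27 (SE, limma adjusted p = 0.00167) on the log2 scale, kept under every setting.

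Of 14 tested genes of the mobile carriers ubiquinone and cytochrome c, 3 rose in ex-HSC against pre-HSC, 5 rose and 1 fell in FL-HSC against pre-HSC, and 1 was higher and 2 were lower in FL-HSC relative to ex-HSC. The rises numbered 2 to 7 with a library left out, 7 without ex-HSC replicate 2, in ex-HSC, and 2 to 9 with a library left out, 2 without FL-HSC replicate 1 or pre-HSC replicate 1 or 2, 3 without pre-HSC replicate 3, 9 without ex-HSC replicate 2, in FL-HSC. In FL-HSC relative to ex-HSC the higher ones numbered 0 to 2 with a library left out, 0 without FL-HSC replicate 1 or 2, 2 without ex-HSC replicate 3, and the lower ones 1 to 2 with a library left out, 1 without FL-HSC replicate 1 or 2 or ex-HSC replicate 1 or 3 or pre-HSC replicate 2. The shares called higher were 21.4% in ex-HSC and 35.7% in FL-HSC against pre-HSC and 7.14% in FL-HSC against ex-HSC, beside 15.7%, 22.9% and 24.1% of all tested genes. The shares called lower were 7.14% in FL-HSC against pre-HSC and 14.3% in FL-HSC against ex-HSC, beside 20.4% and 9.15% of all tested genes. Cycs, somatic cytochrome c, had 50.8 and 47.5 FPKM in the FL-HSC libraries, 77.6, 71.4 and 89.6 in the ex-HSC libraries and 27.5, 37.1 and 43.8 in the pre-HSC libraries. The 3 ex-HSC libraries were the highest, and the log2 fold change against pre-HSC was 1.14 ± 0.20 (SE, limma adjusted p = 0.000887), kept under every setting. Adck3, a kinase-like protein of ubiquinone synthesis, had 24.1 and 27.3 FPKM in FL-HSC and 15.9, 16.4 and 23.7 FPKM in ex-HSC, against 4.24, 2.61 and 7.23 FPKM in pre-HSC, without overlap of either group with pre-HSC. Coq10b, a ubiquinone-binding protein, had 2.31 and 4.06 FPKM in the FL-HSC libraries, 22.6, 16.6 and 28.8 in the ex-HSC libraries and 12.4, 12.1 and 16.8 in the pre-HSC libraries. FL-HSC lay below all other libraries, with log2 fold changes -1.84 ± 0.29 (SE, limma adjusted p = 0.000474) against pre-HSC and -2.50 ± 0.29 (SE, limma adjusted p = 0.000146) against ex-HSC, both kept under every setting.

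Among 29 genes of mitochondrial DNA upkeep and transcription, 13 rose in FL-HSC against pre-HSC with none lower by limma (1 at an unadjusted p under 0.05), and the rises numbered 5 to 15 with a library left out, 5 without FL-HSC replicate 2, 8 without FL-HSC replicate 1 or pre-HSC replicate 1 or 2. In ex-HSC against pre-HSC 5 rose (3 to 7 with a library left out, 3 without ex-HSC replicate 1 or 3 or pre-HSC replicate 1) and 1 fell, and 5 were higher in FL-HSC than in ex-HSC (1 to 6 with a library left out, 1 without FL-HSC replicate 1, 3 without FL-HSC replicate 2 or pre-HSC replicate 1 or 2). The 13 are 44.8% of the list, beside 22.9% of all tested genes. The share of 17.2% in ex-HSC was near the 15.7% of all tested genes, and the same share in FL-HSC against ex-HSC lay under the 24.1% of all. The 1 fall in ex-HSC was 3.45% of the list, under the 28.4% of all tested genes called lower. Tfam, which packages mitochondrial DNA and starts its transcription, had 90.1 and 74.2 FPKM in FL-HSC and 71.0, 49.6 and 62.0 FPKM in ex-HSC, against 35.7, 46.9 and 35.4 FPKM in pre-HSC. Both groups lay above pre-HSC, with log2 fold change 1.05 ± 0.22 (SE, limma adjusted p = 0.00333) in FL-HSC, kept under every setting. In ex-HSC against pre-HSC it was 0.61 ± 0.20 (SE, limma adjusted p = 0.0281). The Tfam call in ex-HSC against pre-HSC was lost without ex-HSC replicate 1 or 3 or pre-HSC replicate 1 or 3 (adjusted p from 0.0732 to 0.111). Polg and Polg2 encode the catalytic and accessory subunits of the mitochondrial DNA polymerase, and they moved in opposite directions in ex-HSC. Polg had 24.5 and 26.3 FPKM in the FL-HSC libraries, 16.3, 9.02 and 14.8 in the ex-HSC libraries and 33.2, 32.6 and 36.6 in the pre-HSC libraries, with log2 fold change -1.33 ± 0.22 (SE, limma adjusted p = 0.000595) in ex-HSC against pre-HSC. Polg2 had 5.86 and 5.99 FPKM in FL-HSC and 7.81, 6.20 and 8.59 FPKM in ex-HSC, against 4.00, 2.79 and 2.95 FPKM in pre-HSC, with log2 fold change 1.01 ± 0.21 (SE, limma adjusted p = 0.00233) in the same comparison. Neither ex-HSC range overlapped with pre-HSC, and both calls were kept under every setting. Peo1, the helicase of mitochondrial DNA replication, had 23.4 and 21.5 FPKM in the FL-HSC libraries, 12.6, 8.40 and 11.1 in the ex-HSC libraries and 10.0, 9.32 and 8.57 in the pre-HSC libraries, with both FL-HSC libraries above all others.

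Of 8 tested regulators of mitochondrial biogenesis, none rose in ex-HSC against pre-HSC by limma (0 at an unadjusted p under 0.05, but 2 called without ex-HSC replicate 2) and 2 fell (1 without pre-HSC replicate 2 or 3), whereas 5 rose in FL-HSC against pre-HSC (2 to 6 with a library left out, 2 without FL-HSC replicate 1 or pre-HSC replicate 3, 3 without FL-HSC replicate 2 or pre-HSC replicate 2) and 3 were higher in FL-HSC than in ex-HSC. The share higher in FL-HSC was 62.5% against pre-HSC and 37.5% against ex-HSC, beside 22.9% and 24.1% of all tested genes, and the 25% that fell in ex-HSC was near the 28.4% of all. Ppargc1b, a coactivator of nuclear genes for mitochondrial proteins, had 4.43 and 4.64 FPKM in FL-HSC and 1.07, 0.639 and 1.11 FPKM in ex-HSC, against 1.22, 1.66 and 1.10 FPKM in pre-HSC. FL-HSC lay above all other libraries, with log2 fold changes 1.26 ± 0.22 (SE, limma adjusted p = 0.00108) against pre-HSC and 1.52 ± 0.22 (SE, limma adjusted p = 0.000658) against ex-HSC. Pprc1, a related coactivator, had 44.9 and 44.2 FPKM in the FL-HSC libraries, 14.9, 8.88 and 14.8 in the ex-HSC libraries and 26.2, 25.5 and 23.7 in the pre-HSC libraries. Its groups do not overlap, with FL-HSC highest and ex-HSC lowest. On the log2 scale the change was 1.75 ± 0.24 (SE, limma adjusted p = 0.000432) in FL-HSC against ex-HSC and -0.95 ± 0.21 (SE, limma adjusted p = 0.00427) in ex-HSC against pre-HSC. Myc, a transcription factor of cell growth, had 144 and 121 FPKM in FL-HSC and 41.4, 16.8 and 38.3 FPKM in ex-HSC, against 26.0, 34.2 and 28.6 FPKM in pre-HSC, with log2 fold changes 2.13 ± 0.34 (SE, limma adjusted p = 0.000517) against pre-HSC and 2.10 ± 0.34 (SE, limma adjusted p = 0.00111) against ex-HSC. These 6 calls of Ppargc1b, Pprc1 and Myc were kept under every setting. Nrf1, whose motif is printed above, had 42.1 and 33.7 FPKM in the FL-HSC libraries, 29.6, 22.0 and 34.3 in the ex-HSC libraries and 26.2, 26.7 and 26.2 in the pre-HSC libraries, and passed in no comparison. Ppargc1a, the founding coactivator of the family, stayed at or below 0.362 FPKM in all libraries and was not tested.

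Of 16 genes of the citric acid cycle, which feeds NADH and succinate to the chain, 5 rose in FL-HSC (1 to 10 with a library left out, 1 without FL-HSC replicate 1, 2 without pre-HSC replicate 1 or 3, 3 without FL-HSC replicate 2 or ex-HSC replicate 1 or pre-HSC replicate 2, 10 without ex-HSC replicate 2) and 5 in ex-HSC (3 to 8 with a library left out, 3 without ex-HSC replicate 3 or pre-HSC replicate 1, 8 without ex-HSC replicate 2), each against pre-HSC, and 1, Ogdh, was higher in FL-HSC than in ex-HSC. The Ogdh call in FL-HSC against ex-HSC was lost under the unfiltered, median-of-ratios, 2-group and reduced median-of-ratios fits and without FL-HSC replicate 1 or 2 or pre-HSC replicate 1, 2 or 3 (adjusted p from 0.0579 to 0.215). The share called higher was 31.2% in FL-HSC and in ex-HSC, beside 22.9% and 15.7% of all tested genes, and 6.25% in FL-HSC against ex-HSC, beside 24.1%. Idh3a, the catalytic subunit of isocitrate dehydrogenase, had 70.9 and 69.7 FPKM in FL-HSC and 59.3, 46.2 and 60.5 FPKM in ex-HSC, against 28.9, 32.4 and 27.6 FPKM in pre-HSC. FL-HSC and ex-HSC both lay above pre-HSC, with log2 fold changes 1.22 ± 0.20 (SE, limma adjusted p = 0.000561) in FL-HSC and 0.87 ± 0.17 (SE, limma adjusted p = 0.00204) in ex-HSC against pre-HSC, both kept under every setting. Suclg1, of succinyl-CoA ligase, had 100.1 and 79.5 FPKM in the FL-HSC libraries, 125, 111 and 149 in the ex-HSC libraries and 60.3, 64.6 and 65.5 in the pre-HSC libraries, and rose in ex-HSC, log2 fold change 0.99 ± 0.18 (SE, limma adjusted p = 0.000972) against pre-HSC, kept under every setting.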

How the data were processed

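FPKM values (fragments per kilobase of transcript, scaled to each library's fragments) were deposited by the authors, per the file headers, with 1 column for each of the 8 libraries and no pooling. Per the submitters' processing notes the build was mm9 and the tools were Cufflinks, featureCounts, edgeR and DESeq; their versions and roles are not given in the sources used here. Per the labels' protocols, poly(A)-selected RNA of sorted cells was made into paired-end libraries with a kit that does not mark strand. Of 33531 rows, 27 had dates in place of symbols and were dropped, which left 33504 genes, 7392 of them at 0 in all libraries.

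From these values log2(FPKM + 1) was computed, genes under 1 FPKM in more than 6 libraries were left out, and limma 3.58.1 in R 4.3.3 was fitted with an intensity trend to all 8 libraries with 1 mean per group. P-values were Benjamini-Hochberg adjusted over the 13720 tested genes of each comparison and called under 0.05. P-values then measure no more than how these libraries vary, which may be technical, since no source says that replicates came from separate animals or cultures. Depth is unknown: at most 2.48% of genes under 0.5 FPKM in 2 libraries shared the commonest ratio, which did not allow whole reads to be recovered, and intervals that need counts are not given. Alternatives tried were other pseudocounts, filters, scalings, fits and each library left out.

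The genes, lists and tests were chosen with earlier results of these data known, and no count over them is independent evidence. Genes were named by a rule: all mitochondrial genes, up to 4 called genes per complex and comparison with the largest change, calls against the main direction, isoform pairs, c subunit and Sdh genes, genes left out by the filter, and up to 3 called genes per list. Ndufb10, Ndufs7, Cox5a, Ndufs1, Uqcrfs1, Uqcrc1, Uqcrc2, Atp5a1, Ndufa4, Cox7a2l, Ndufa4l2 and some further calls of rule-named genes were described for their roles after their values were seen. Markers came from lists of cell type genes. Promoters were taken from RefSeq on GRCm38.p6, where 66 of 83 nuclear genes matched by symbol, and mitochondrial positions from GENCODE on GRCm38. No coordinate was converted from mm9. Figures were drawn with matplotlib 3.10.9 in Python 3.11.15.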

Additional observations from a re-analysis of the deposited data

How the results depend on the processing

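The counts of respiratory chain genes called moved with the scaling and with single libraries, as did the counts over all tested genes. Over all tested genes, the 2154 higher calls in ex-HSC against pre-HSC became 3649 after median-of-ratios scaling. With a pre-HSC or ex-HSC library left out they became 1551 to 3086. In FL-HSC against pre-HSC the 3147 higher calls became 2342 to 4072 with such a library left out. In FL-HSC against ex-HSC the 1256 lower calls became 2455 after that scaling and 1018 to 1506 with such a library left out. The cause of these moves was not tested. In ex-HSC against pre-HSC, 38 higher calls became 20 without the filter on low values, 68 after median-of-ratios scaling and 17 to 56 with a library left out, and the 1 lower call became 0 without the filter, 0 with the filter of 5 FPKM, 0 after median-of-ratios scaling, 3 after scaling to equal sums and 0 to 1 with a library left out. In FL-HSC against pre-HSC, 25 higher calls became 5 to 37 with a library left out, and the 0 lower calls became 1 after median-of-ratios scaling, 7 after quantile normalization and 4 after scaling to equal sums. In FL-HSC against ex-HSC, 3 higher calls became 8 after quantile normalization, 7 after scaling to equal sums and 2 to 4 with a library left out, and 11 lower calls became 6 without the filter, 29 after median-of-ratios scaling, 19 after quantile normalization, 20 after scaling to equal sums, 3 with only the 2 groups fitted, 18 with median-of-ratios scaling once ex-HSC replicate 2 was dropped and 3 to 11 with a library left out. The log2 fold change of mt-Nd1 in ex-HSC against pre-HSC reversed to -0.077 after quantile normalization. Of the named calls, 20 of 42 in FL-HSC against pre-HSC, 25 of 48 in ex-HSC against pre-HSC and 13 of 34 in FL-HSC against ex-HSC passed under all alternatives.

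Replicate numbers are shared by the groups, and the correlation of deviations between same-numbered libraries was -0.114 to 0.144. Deviations were taken from each group's mean, so those of the 2 FL-HSC libraries mirror each other. These values therefore cannot tell whether same-numbered libraries shared a litter or batch. With the replicate block the counts higher and lower were 35 and 0 in FL-HSC against pre-HSC, 43 and 1 in ex-HSC against pre-HSC, and 4 and 10 in FL-HSC against ex-HSC. FL-HSC had 2 libraries; with 1 left out, the lone library is assumed to vary like the other groups. FPKM without counts limits the precision of low genes such as mt-Nd4l and Cox6a2. The calls of Cox6a2, counted among those that passed under all alternatives, are no support for its higher level in ex-HSC.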
